A study of Rattus norvegicus with 10 samples.

Results

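The difference that tying off the left anterior descending artery of the heart (LAD ligation) made in rats that had already undergone remote ischemic preconditioning (RIPC) was read from 4 of the 10 samples of the series. These were the 2 RIPC+LAD animals and the 2 RIPC animals, chosen by their treatment labels alone, and 420 microRNA probes were counted in each. Male Sprague-Dawley rats were used throughout, and the labels do not give their age. RNA came from brainstem punches of the dorsal vagal complex, the region that holds the vagal motor and sensory nuclei, and was counted with the NanoString nCounter assay, in which barcoded probes are counted without amplification. RIPC was a transient bilateral occlusion of the femoral vessels under ketamine and xylazine. In the RIPC+LAD group the artery was tied 2 h later through an opened chest, and tissue was taken 24 h after ligation. RIPC animals were collected at the matching time after RIPC. They had neither a ligation nor, as far as the sources used here say, a sham chest operation, so ligation and the second anesthesia and surgery cannot be told apart. LAD animals (n = 3) had the ligation without RIPC and AMC animals (n = 3) were age-matched controls. Those 6 samples served the estimate of the spread and the same difference without preconditioning.

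microRNAs are short RNAs that guide Argonaute proteins to messenger RNAs, usually through pairing of bases 2 to 8, the seed, and lower the translation or stability of those messages. microRNAs with one seed are expected to share many targets, and those processed from one primary transcript often share their production. Vagal motor neurons of this region slow the heart and have been studied for their part in the protection that RIPC gives to the heart. Neuronal, glial, vascular and choroid plexus cells each carry characteristic microRNAs, and a punch holds several of these cell types.

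Sequences are shown here for the microRNAs that led the comparison in either direction, since the seed decides which messages a microRNA can pair with. All were taken from the RefSeq table of the rat assembly GRCr8, with the seed in capitals. Mature sequences were found by the probe name for 162 of the 420 probes. For 42 more the probe name gives no hairpin arm, and the arm usually meant by the plain name was assigned. Among those shown first, this holds for all but miR-449c-3p.
miR-23b: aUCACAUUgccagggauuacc
miR-185: uGGAGAGAaaggcaguuccuga
miR-100: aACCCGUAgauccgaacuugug
miR-129: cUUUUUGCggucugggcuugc
miR-210: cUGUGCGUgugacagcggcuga
miR-127: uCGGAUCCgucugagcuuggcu
miR-489: aUGACAUCacauauauggcagc
miR-449c-3p: uAGAACUUcgucccaac
miR-448: uUGCAUAUguaggauguccca
miR-30c: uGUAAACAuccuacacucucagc
The hairpins of miR-23b, miR-210, miR-127, miR-449c-3p and miR-448 lie on rat chromosomes 17, 1, 6, 2 and X. No 2 of these 10 sequences share a seed.

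Total microRNA counts were 90086 and 73293 in the RIPC animals and 80696 and 93246 in the RIPC+LAD animals, within the range of 28485 to 102824 over the series. A probe was taken as above background where its count exceeded the mean plus 2 SD of the 8 negative controls, which put the threshold at 6.09 and 11.2 counts in RIPC and at 7.08 and 4.75 counts in RIPC+LAD. At least 2 of the 10 samples had to pass for a microRNA to be tested, and 253 did, of which 167 were above background in all 4 samples compared. Values below are scaled counts, the count per 100000 microRNA counts after TMM scaling, and differences are log2 fold changes from the edgeR quasi-likelihood fit of all 10 samples, written as RIPC+LAD minus RIPC with their standard error. Technical controls also moved with the group. The strongest ligation control, an added RNA that reports the assay's own ligation step, stood at 79.2% and 38.4% of the strongest positive control in RIPC and at 111% and 172% in RIPC+LAD. The same positive control gave 8670 and 14579 counts in RIPC and 6725 and 7264 in RIPC+LAD. Samples were also split into a high and a low positive control set, with only RIPC 2 of these 4 in the high set. With the ligation controls or this set as a covariate, 0 microRNAs passed adjustment and 9 and 7 had an unadjusted p under 0.05 (edgeR).

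After adjustment over the 253 microRNAs, none differed between RIPC+LAD and RIPC (0%, smallest adjusted p = 0.514, edgeR). At an unadjusted p under 0.05, 7 were higher (2.77%) and 10 were lower (3.95%) in RIPC+LAD, and 5 of these 17 were not above background in either animal of 1 group. The median difference of all tested microRNAs was 0.07, with 133 higher and 120 lower. Typical precision was a standard error of 0.46, and the median 95% interval reached 0.98 to either side. An exact permutation test of 2 against 2 animals cannot give a two-sided p below 0.333. Between animals of a group, a microRNA typically differed by 0.42 in RIPC and 0.33 in RIPC+LAD on the log2 scale. In a fit of the 4 samples alone, 8 microRNAs passed, namely miR-127, miR-185, miR-210 and miR-23b as higher and miR-204, miR-3590-5p, miR-448 and miR-449c-3p as lower (adjusted p = 0.035 to 0.042). That fit has 2 residual degrees of freedom and draws each microRNA's spread towards a shared value with a weight of 78.5 prior degrees of freedom, against 9.67 in the fit of all samples. Among samples with a low positive control, which include both RIPC+LAD animals but only RIPC 1, miR-204 (-2.52, adjusted p = 0.0032) and miR-34c (-1.79, adjusted p = 0.049) passed, with RIPC 1 assumed to vary like the other groups (edgeR).

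**Figure D1:**
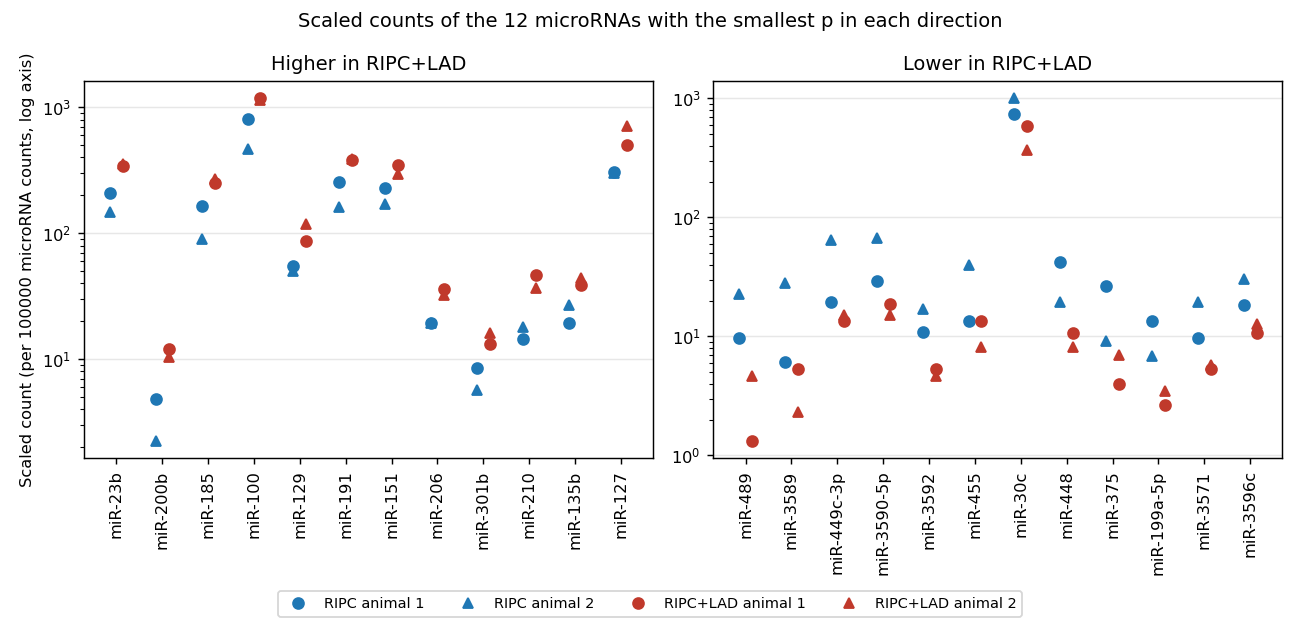
Scaled count (per 100000 microRNA counts, log axis) of the 12 microRNAs with the smallest p in each direction in the 2 RIPC animals (blue) and the 2 RIPC+LAD animals (red), circles for animal 1 and triangles for animal 2. The groups do not overlap for any of the 24, and the RIPC animals lie farther apart than the RIPC+LAD animals for many of the lower microRNAs, as for miR-449c-3p at 19.4 and 64.6.

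Among the 12 leading microRNAs on the higher side were several with high counts in these punches. miR-23b, which is transcribed with miR-27b and miR-24, had the smallest p of that side, with scaled counts of 210 and 148 in RIPC and 344 and 353 in RIPC+LAD. Both RIPC+LAD animals lay above both RIPC animals, and also above the highest of the 6 other samples at 212.5. The difference was 0.96 ± 0.34. miR-100, a member of a family known for repressing mTOR signaling, stood at 808 and 470 in RIPC and at 1182 and 1143 in RIPC+LAD. It had the highest counts of the 12, and the RIPC+LAD animals were again close to each other while the RIPC animals were not. Its difference was 0.86 ± 0.34, or 0.52 without RIPC 2.

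miR-185 gave 165 and 89.5 in RIPC against 249 and 272 in RIPC+LAD (1.03 ± 0.39, or 0.66 without RIPC 2). miR-191 gave 256 and 162 against 384 and 388 (0.89 ± 0.35), and miR-151, which lies within the focal adhesion kinase gene in human and mouse, gave 228 and 171 against 345 and 297 (0.69 ± 0.32). For all 3 the RIPC+LAD animals exceeded every other sample of the series. miR-129, a brain-enriched microRNA, stood at 54.6 and 49.9 in RIPC and at 86.7 and 119 in RIPC+LAD, a difference of 0.98 ± 0.39. miR-127, which is processed from the imprinted Dlk1-Dio3 locus and lies antisense to Rtl1, stood at 307 and 303 in RIPC and at 499 and 716 in RIPC+LAD. Here the RIPC animals were nearly equal and the spread came from the ligated ones. Its difference was 0.99 ± 0.48, and an AMC animal at 639 reached into the RIPC+LAD range.

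miR-210, the microRNA most widely used as a readout of hypoxia because it is induced by hypoxia-inducible factor, gave 14.6 and 18.1 in RIPC and 46.7 and 36.9 in RIPC+LAD. The difference was 1.34 ± 0.64, with a 95% interval from -0.01 to 2.69. Values without preconditioning overlapped, at 16.3 to 50.4 in AMC and 14.0 to 73.7 in LAD. So the RIPC animals sat at the low end of the series and the RIPC+LAD animals inside the range of the others. miR-206, best known from skeletal muscle, stood at 19.4 and 19.3 against 36.0 and 32.3 (0.81 ± 0.38). miR-301b (1.05 ± 0.50) and miR-135b (0.82 ± 0.39) completed the higher side together with miR-200b.

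miR-200b, which maintains epithelial identity by repressing Zeb1 and Zeb2, had the largest difference among the 12 at 1.62 ± 0.60. Its scaled counts were 4.86 and 2.27 in RIPC and 12 and 10.4 in RIPC+LAD. These are counts of 4 and 2 against 9 and 9, and neither RIPC animal was above background, so the fold rests on a level that the assay did not resolve. An LAD animal at 10.8 overlapped the RIPC+LAD group.

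The lower side was made up mostly of microRNAs with low counts. Of its 12 leading members 10 had a mean count under 30 over the 10 samples, against 5 of 12 on the higher side. miR-489, which lies within the calcitonin receptor gene in mouse and human, had the smallest p of all 253. It gave 9.71 and 22.7 in RIPC and 1.33 and 4.61 in RIPC+LAD, or raw counts of 8 and 20 against 1 and 4. Neither RIPC+LAD animal was above background, and both were below all 8 other samples, whose lowest value was 7.51. The difference was -2.35 ± 0.65 (adjusted p = 0.514, edgeR).

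miR-30c had by far the highest counts on this side. It stood at 743 and 1003 in RIPC and at 587 and 366 in RIPC+LAD, below the other 8 samples, whose lowest value was 614 in an AMC animal. The difference was -0.87 ± 0.37. miR-449c-3p, from the locus that drives formation of motile cilia together with miR-34b and miR-34c, gave 19.4 and 64.6 in RIPC and 13.3 and 14.98 in RIPC+LAD (-1.56 ± 0.53). miR-455, which lies within a collagen gene in mouse and human, gave 13.35 and 39.7 against 13.34 and 8.07 (-1.32 ± 0.53). For miR-455 the nearest animals of the groups were level, and for both microRNAs RIPC 2 was the high animal. Without it the differences were -0.45 and -0.33.

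Of the other lower microRNAs, miR-448, which lies within the serotonin receptor gene Htr2c, gave 42.5 and 19.3 in RIPC against 10.7 and 8.07 in RIPC+LAD (-1.71 ± 0.73). miR-375, known from pancreatic islet and other endocrine cells, gave 26.7 and 9.07 against 4.00 and 6.91 (-1.65 ± 0.72), and 1 animal of each group was above background. Without RIPC 1 its difference was -0.70. miR-199a-5p, known from smooth muscle and fibroblasts, gave 13.35 and 6.80 against 2.67 and 3.46 (-1.65 ± 0.73). No RIPC+LAD animal was above background for miR-199a-5p. For all 24 leading microRNAs the groups did not overlap, as was the case for 69 of all 253 on the higher side (27.3%) and 55 on the lower side (21.7%). All 24 also kept their direction when any 1 of the 4 animals was left out. Where groups do not overlap, leaving out 1 animal can hardly turn the direction, so this adds no support.

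Seen against the whole series, RIPC+LAD animals occupied the end of the range for more microRNAs than RIPC animals. Both RIPC+LAD animals exceeded all 8 other samples for 23 of 253 microRNAs and lay below all of them for 18, whereas both RIPC animals did so for 2 and 2. Of the 12 leading higher microRNAs 7 were among the 23, and of the 12 leading lower ones 8 were among the 18. Choosing the 12 by their p against RIPC favours such a place. RIPC+LAD animals also carried the same first part of their animal number, which the RIPC animals did not share with each other.

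**Figure D2:**
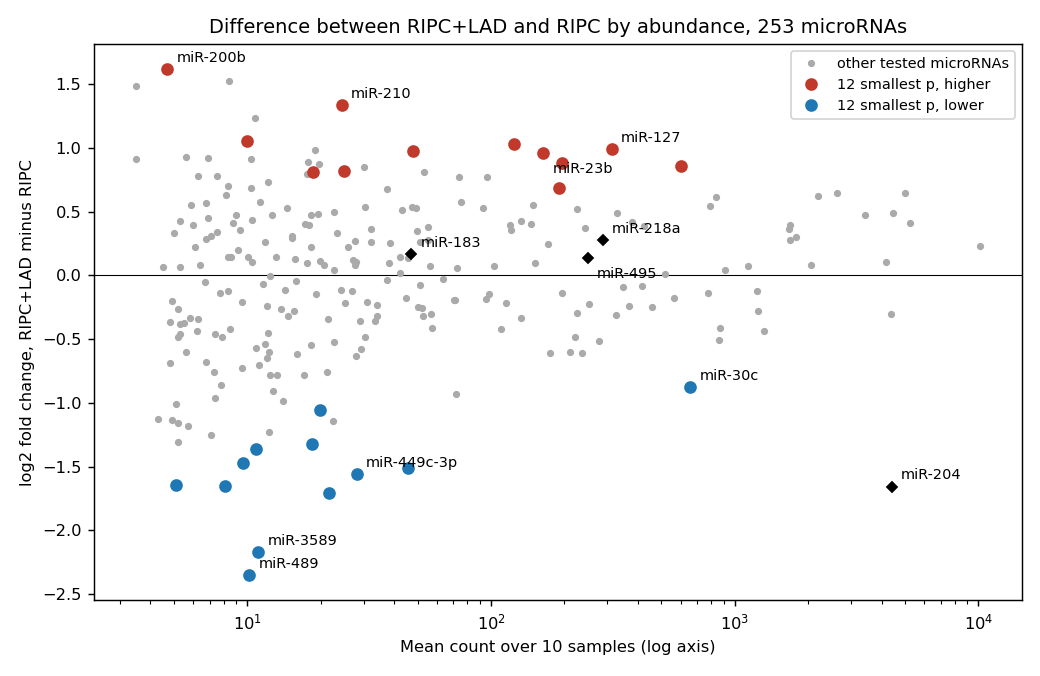
Difference between RIPC+LAD and RIPC (log2 fold change) against the mean count over 10 samples (log axis) for the 253 tested microRNAs, with the 12 of smallest p higher in red, the 12 lower in blue, and miR-204, miR-218a, miR-495 and miR-183 as black diamonds. Leading lower microRNAs lie mostly at low counts, with miR-30c the exception, and of the microRNAs with a difference beyond -1 miR-204 has the highest mean count.

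How the differences ran from rare to abundant microRNAs depended on which RIPC animal was compared. microRNAs were ranked by their mean TMM-scaled log2 value over the 10 samples. In the 64 with the lowest mean the median difference was -0.09 and in the 63 with the highest it was 0.14. Without RIPC 1 these medians were -0.25 and 0.42, and without RIPC 2 they were 0.06 and 0.04. RIPC 2 had the higher background, with a negative control mean of 4.5 counts against 2.75 in RIPC 1 and 2.875 and 2.625 in the RIPC+LAD animals. Whether this bears on the medians was not tested. With the negative control mean of each sample subtracted, miR-489 was at -3.28 and miR-3589 at -3.34. The median of all tested microRNAs was then -0.02, and 22 had an unadjusted p under 0.05 (edgeR), 7 higher and 15 lower.

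Choroid plexus and ciliated cells gave the lowest median of the 21 microRNA lists. The choroid plexus makes cerebrospinal fluid and lies in the ventricle next to the dorsal vagal complex. miR-204 marks it, and the miR-34b, miR-34c and miR-449 microRNAs mark cells with motile cilia. All 6 tested members were lower in RIPC+LAD, with a median of -1.39 against 0.07 for all tested microRNAs, and 0 passed adjustment. In bulk tissue, fewer cells of a type and less RNA per cell cannot be told apart.

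miR-204 was clearly lower in RIPC+LAD only when set against RIPC 1. Its scaled counts were 10670 and 1980 in RIPC and 2119 and 1886 in RIPC+LAD, and it took 9.75% of all microRNA counts in RIPC 1 but 2.38%, 1.97% and 1.76% in the other 3 animals. RIPC 1 alone stood apart, and the other 3 were alike. The difference was -1.66 ± 0.92 with both RIPC animals and 0.02 without RIPC 1. RIPC 1 was also the highest of the 4 for miR-34b, at 27.9 and 10.2 against 6.67 and 9.22, and for miR-34c, at 181 and 35.1 against 49.35 and 63.4. Without RIPC 1 the difference of miR-34c turned to 0.68 and the median of the list to -0.29. Summed over the list, scaled counts were 10961 and 2126 in RIPC and 2217 and 1993 in RIPC+LAD. They ranged from 2008 to 5900 in AMC and from 1976 to 19167 in LAD, where 1 animal was also high.

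**Figure D3:**
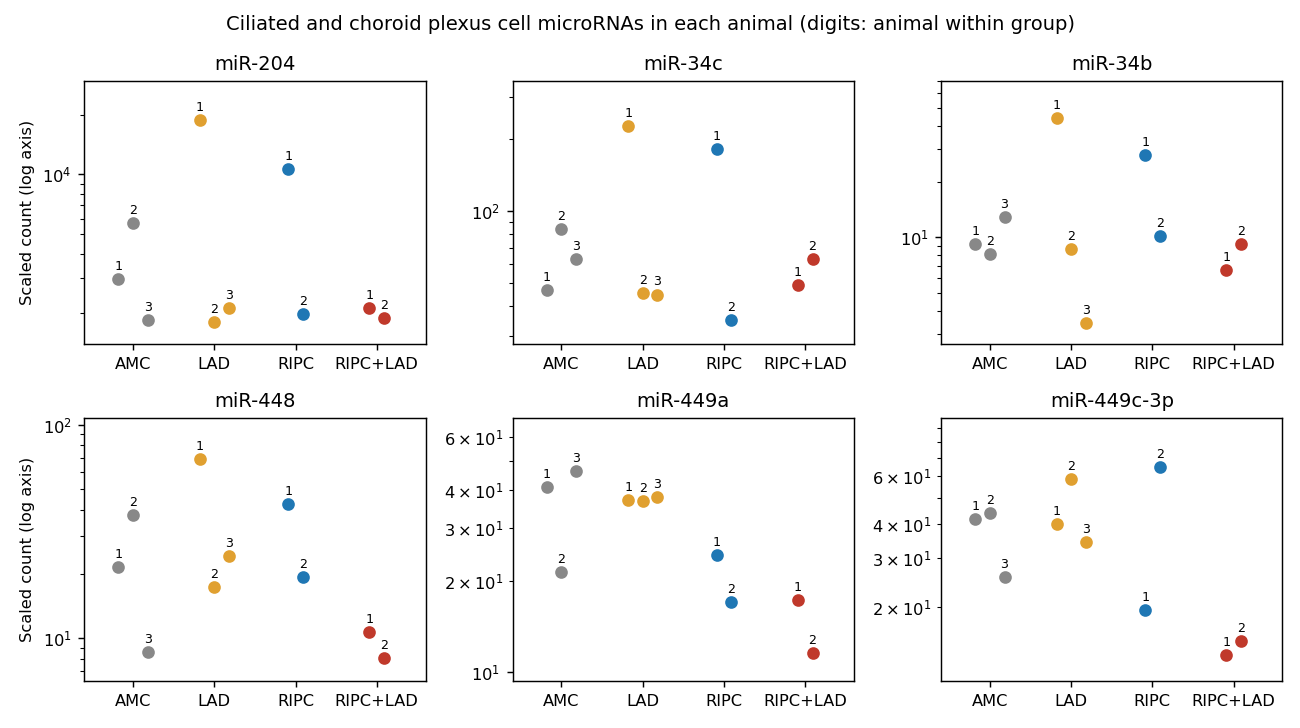
Scaled counts (log axes) of 6 ciliated and choroid plexus cell microRNAs in every animal of the 4 groups, with digits giving the animal within its group. RIPC 1 and LAD 1 are the high animals for miR-204, miR-34c, miR-34b and miR-448, and RIPC 2 is the high one for miR-449c-3p.

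miR-449c-3p did not follow RIPC 1, since its higher value was in RIPC 2, and miR-448 was higher in both RIPC animals than in both RIPC+LAD animals. Without RIPC 1 their differences were -2.17 and -1.04. miR-449a, read from the same primary transcript as miR-449c, gave 24.3 and 17.0 in RIPC and 17.3 and 11.5 in RIPC+LAD (-0.52 ± 0.47), so its groups overlapped.

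Neuron-enriched microRNAs were higher in RIPC+LAD for 8 of 12 tested members, with a median of 0.21 against 0.07 for all. That median was -0.15 without RIPC+LAD 2, 0.03 with no TMM factor and 0.09 with scaling on the top 100 microRNAs. miR-124, which defines neuronal identity, gave 5983 and 5343 in RIPC and 8298 and 6773 in RIPC+LAD (0.41 ± 0.42). miR-132, induced by neuronal activity through CREB, gave 2644 and 1988 against 3581 and 3548 (0.62 ± 0.42), and miR-138, found at synapses, gave 110.5 and 97.5 against 155 and 145 (0.53 ± 0.33). These groups did not overlap, yet each interval of the difference included 0. miR-9 (-0.30 ± 0.34) and miR-7b (-0.21 ± 0.36) had differences of the other sign. The imprinted Dlk1-Dio3 cluster, which is expressed in neurons, gave 24 higher and 14 lower of 38, with a median of 0.26. It was 0.08 without RIPC 2, -0.02 without RIPC+LAD 2 and 0.10 with no TMM factor. Its leading members were miR-127, given above, miR-541 (0.68 ± 0.44) and miR-300-3p (-0.60 ± 0.33).

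Glial and blood lists were small. Oligodendrocyte microRNAs miR-219-2-3p, miR-219-5p and miR-338, which promote myelination, were lower in 3 of 3 with a median of -0.44, which was 0.12 without RIPC 2. miR-338 itself gave 980 and 1905 in RIPC and 1407 and 726 in RIPC+LAD, so the groups overlapped. miR-451 and miR-144, which come from erythrocytes, differed by -0.78 ± 0.50 and -1.14 ± 0.89, at summed scaled counts of 23 and 27 in RIPC and 15 and 13 in RIPC+LAD. Vascular microRNAs miR-126, miR-143 and miR-145 had a median of 0.20, which lay just below 0 with no TMM factor. Immune and inflammation microRNAs, of which 4 of 6 were higher, had a median of 0.11, which turned to -0.06 with no TMM factor and to -0.01 with scaling on the top 100 microRNAs. Among them were miR-146a, a feedback inhibitor of Toll-like receptor signaling, at 0.53 ± 0.36, and miR-150 at -0.27 ± 0.31, while miR-223 did not reach the detection filter. Muscle microRNAs (median 0.14, or -0.04 with no TMM factor), the Hox cluster microRNAs (median -0.09) and the miR-183 cluster of sensory neurons (median 0.17) lay near the median of all microRNAs. The Hox median was 0.19 without RIPC 1 and -0.33 without RIPC 2. Without RIPC+LAD 1 the vascular, immune and muscle medians were -0.05, -0.02 and -0.17.

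**Figure D4:**
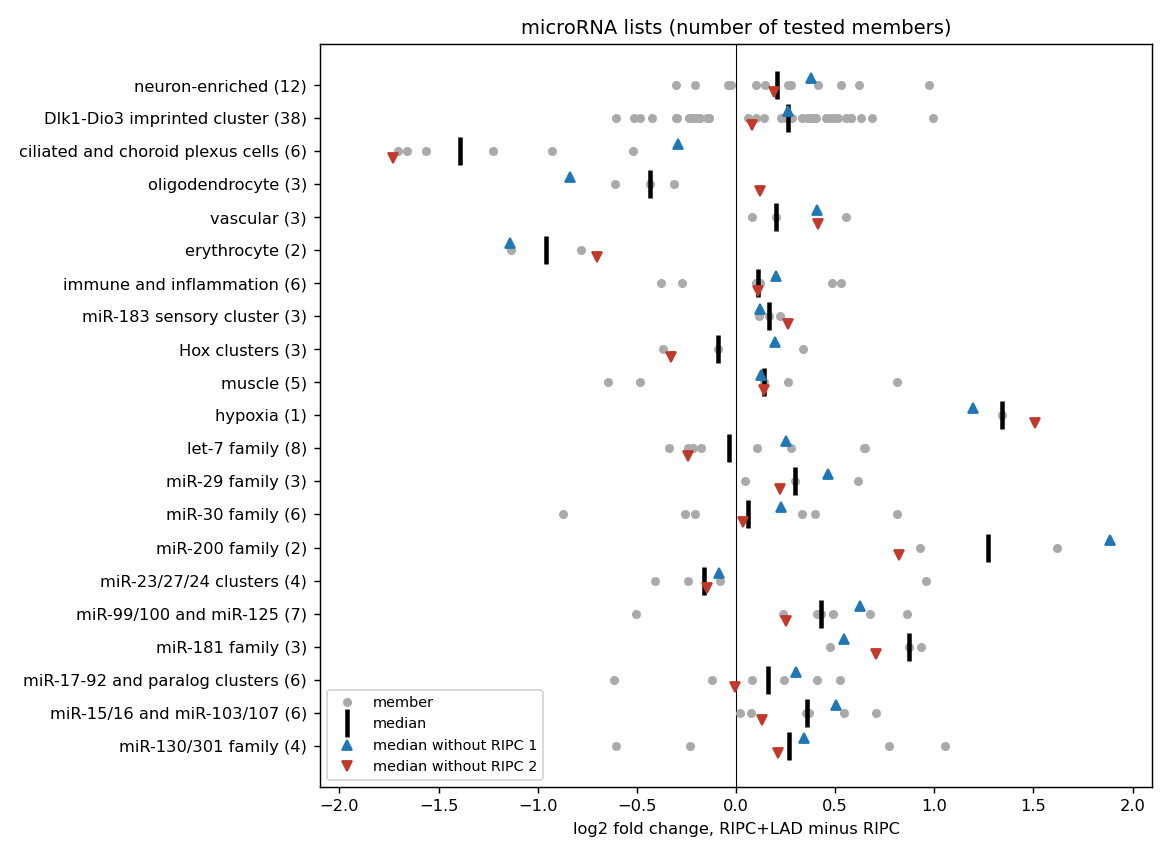
Difference between RIPC+LAD and RIPC (log2 fold change) of each tested member (grey) of 21 microRNA lists, with the list median (black bar) and the medians without RIPC 1 (blue) and without RIPC 2 (red). The ciliated and choroid plexus median moves from -1.39 to -0.29 without RIPC 1, and the oligodendrocyte median from -0.44 to 0.12 without RIPC 2.

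Members of the miR-99/100 and miR-125 families were higher for 6 of 7 (median 0.43), with miR-125a-3p at 0.68 ± 0.34 and miR-125a-5p at 0.49 ± 0.32, and miR-99a the exception at -0.50 ± 0.31. miR-181 members, abundant in brain and lymphocytes, were higher for 3 of 3 (median 0.87), and members of the miR-15, miR-16, miR-103 and miR-107 families for 6 of 6 (median 0.36). miR-29 members were higher for 3 of 3 (median 0.30), miR-200 members for 2 of 2 (median 1.27). For miR-29b alone among these the sign turned with no TMM factor, to -0.16. miR-17-92 members had a median of 0.16 that lay just below 0 with no TMM factor, and miR-30 members one of 0.06 that turned to -0.12. The let-7 family split into 4 and 4, with let-7c (0.65 ± 0.38) and let-7d (0.65 ± 0.40) higher and miR-98 (-0.34 ± 0.48) lower. The miR-181 median was 0.19 without RIPC+LAD 1, that of miR-15, miR-16, miR-103 and miR-107 was 0.13 without RIPC 2, that of miR-29 was 0.14 without RIPC+LAD 2 and that of miR-99/100 and miR-125 was 0.25 without RIPC 2. The miR-200 median was 1.88 without RIPC 1 and 0.82 without RIPC 2. Its members were rare, at summed scaled counts of 14.6 and 6.80 in RIPC and 24.0 and 25.35 in RIPC+LAD. No list had a member past adjustment.

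Members with an identical seed are shown together because their differences were of both signs, and no test of seed and direction was run. Capitals again mark bases 2 to 8.
miR-30c: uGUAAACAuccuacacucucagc
miR-30a: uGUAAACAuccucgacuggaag
miR-30e: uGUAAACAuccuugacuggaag
miR-384-5p: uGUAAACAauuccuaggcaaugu
miR-301b: cAGUGCAAugguauugucaaagc
miR-130b: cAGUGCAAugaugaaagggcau
miR-130a: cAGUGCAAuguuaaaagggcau
miR-206: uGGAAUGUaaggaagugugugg
miR-1: uGGAAUGUaaagaaguguguau
Within the GUAAACA seed, miR-30c was lower as given above, whereas miR-30a stood at 75.3 and 38.5 in RIPC and at 104 and 95.6 in RIPC+LAD (0.81 ± 0.41, or 0.41 without RIPC 2). miR-384-5p was at 0.37 ± 0.41 and miR-30e at -0.21 ± 0.54. Within the AGUGCAA seed, miR-301b (1.05 ± 0.50) and miR-130b (0.77 ± 0.45), which lie within 10 kb of each other, were higher together. miR-130a, from another chromosome, gave 283 and 275 in RIPC and 204 and 163 in RIPC+LAD (-0.61 ± 0.33). miR-206 was higher and miR-1 (-0.49 ± 0.53), at 7.28 and 13.6 against 9.34 and 5.76, overlapped between groups. miR-23b (0.96) and its seed partner miR-23a (-0.08 ± 0.34) also differed, as did miR-135b (0.82) and miR-135a (-0.12 ± 0.31). By contrast, miR-100 (0.86) and miR-99b (0.41 ± 0.36), which share the seed ACCCGUA, were both higher. The groups are incomplete, since tested family members without a sequence here, such as miR-30b-5p, miR-30d and miR-301a, could not be placed by seed.

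Neighbours on the genome shared a direction in some cases and not in others. Next to miR-3592, miR-3578 (-0.91) and miR-3581 (-0.86) were also lower. The same held for miR-449a (-0.52) next to miR-449c-3p and miR-30e (-0.21) next to miR-30c, and miR-130b was higher with miR-301b. miR-27b, within 10 kb of miR-23b, gave 957 and 1282 in RIPC and 987 and 697 in RIPC+LAD (-0.41 ± 0.33), against 0.96 for miR-23b. miR-425 differed by -0.04 against 0.89 for its neighbour miR-191. Of the 5 tested neighbours of miR-127, miR-434 (0.40), miR-337 (0.45) and miR-431 (0.10) were on the higher side and miR-136 (-0.42) and miR-433 (-0.23) on the lower.

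A property that was noticed only after the values had been seen concerned several of the low-count microRNAs on the lower side. Rat microRNAs such as miR-3590-5p are annotated on the strand opposite to a conserved microRNA, so that the mature sequence is the reverse complement of the other one. Of the leading 12 lower microRNAs 5 were of this kind, and their sequences are given with the partner, with the paired bases (at least 16 in a row) in capitals.
miR-3589: gaGGAAACCAGCAAGUGUUGAC
miR-505-3p: GUCAACACUUGCUGGUUUCC
miR-3590-5p: UGCCCUUUUAACAUUGCACUG
miR-130a-3p: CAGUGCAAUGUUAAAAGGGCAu
miR-3592: AAGUGUUGUCCGUGAAUGAUU
miR-382-3p: AAUCAUUCACGGACAACACUU
miR-3571: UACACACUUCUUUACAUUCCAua
miR-1-3p: UGGAAUGUAAAGAAGUGUGUAu
miR-3596c: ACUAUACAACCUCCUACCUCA
let-7e-5p: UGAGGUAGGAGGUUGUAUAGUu
miR-3590-5p gave 29.1 and 66.9 in RIPC and 18.7 and 14.98 in RIPC+LAD (-1.51 ± 0.55), while miR-130a, its reverse complement, differed by -0.61 ± 0.33. miR-3589 gave 6.07 and 28.3 against 5.34 and 2.31 (-2.17 ± 0.73), with no RIPC+LAD animal above background. miR-3592 gave 10.9 and 17.0 against 5.34 and 4.61 (-1.47 ± 0.57), again with none above background. In each of these the RIPC 2 animal was the highest of the 4. Without it the difference was -0.79 for miR-3590-5p, -0.68 for miR-3589 and -1.12 for miR-3592, as well as -0.79 for miR-3571 and -0.63 for miR-3596c.

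Of 23 such probes 13 were tested, and 11 of the 13 were lower in RIPC+LAD with a median of -0.91, where 47.4% of all tested microRNAs were lower. They were rarer than the rest, with a median count of 10.9 against 22.7. The median was -1.25 without RIPC 1 and -0.58 without RIPC 2, when 8 of the 13 were lower. With the negative control mean subtracted it was -1.26, with 11 of the 13 lower. In 5 of the 6 pairs with both strands tested the reverse complement microRNA had the lower difference, as for miR-3596c (-1.05 ± 0.51) against let-7e (0.28 ± 0.35), and the exception was miR-3553 (1.49 ± 0.84) against miR-183 (0.17 ± 0.37). Between LAD and AMC 4 of the 13 were lower and the median was 0.30. Because the grouping was made after the values were known, no test was run on it.

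miR-218a, miR-495 and miR-183 were singled out by the study from these same samples. It chose them for a change after LAD against controls that returned to normal with RIPC before LAD. That is a comparison other than RIPC+LAD against RIPC, in which their differences were small beside their intervals. miR-218a, expressed in motor neurons, gave 384 and 333 in RIPC and 295 and 574 in RIPC+LAD, a difference of 0.28 ± 0.39 with a 95% interval from -0.54 to 1.10. miR-495, from the Dlk1-Dio3 cluster, gave 439 and 219 against 285 and 439 (0.14 ± 0.39). miR-183, from the sensory cluster, gave 74.0 and 37.4 against 73.4 and 51.9 (0.17 ± 0.37). All 3 overlapped between the groups, and the sign of each turned when an animal was left out. Their intervals ran from -0.68 to 0.96 for miR-495 and from -0.63 to 0.96 for miR-183.

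Without preconditioning, LAD against AMC also gave 0 microRNAs past adjustment, with 14 at an unadjusted p under 0.05, 11 of them higher. The 2 ligation differences rest on separate animals. Of the 253 microRNAs 89 had the same sign in both. Of the 12 leading higher microRNAs 2 did, miR-200b (0.60 ± 0.55 in LAD minus AMC) and miR-210 (0.43 ± 0.51), and of the 12 leading lower ones only miR-3590-5p did (-0.42 ± 0.41).

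**Figure D5:**
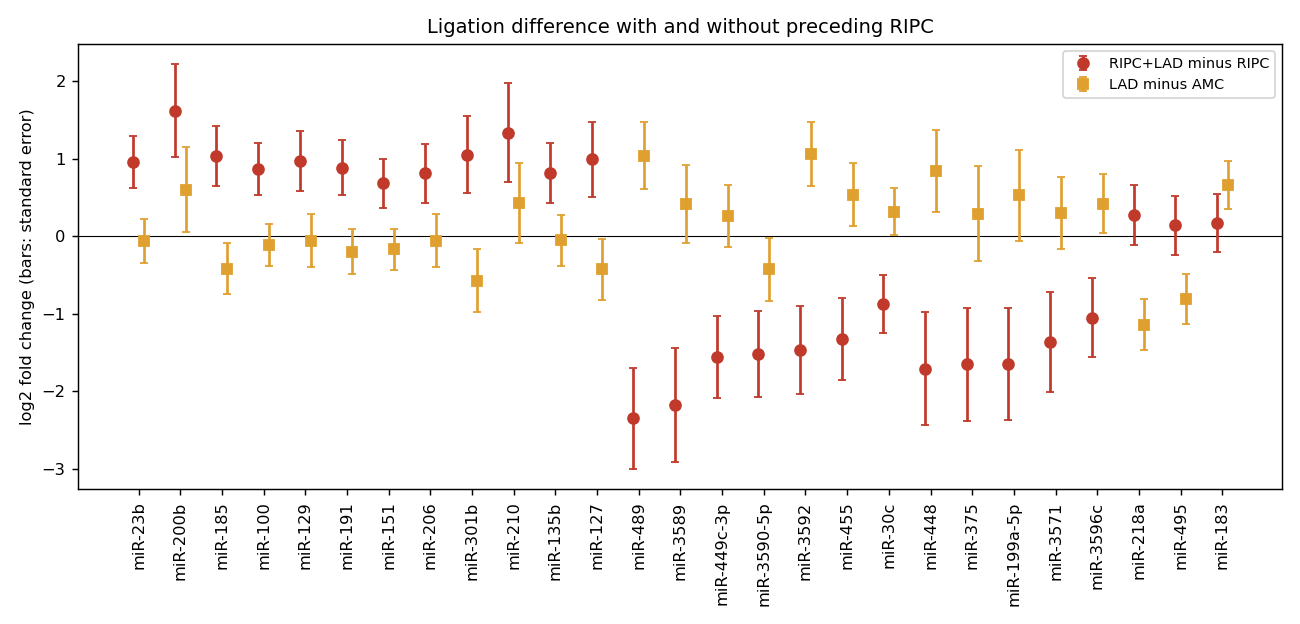
log2 fold change (bars, standard error) of the 24 leading microRNAs and of miR-218a, miR-495 and miR-183 for RIPC+LAD minus RIPC (red) and LAD minus AMC (yellow). miR-489 lies at -2.35 in the first and 1.04 in the second difference, and miR-218a at 0.28 and -1.14.

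The difference between these 2 ligation differences was tested as an interaction in the fit of all samples. None of the 253 passed adjustment (0%, smallest adjusted p = 0.130, edgeR), and 31 had an unadjusted p under 0.05 (12.3%), 11 with a higher and 20 with a lower value after preconditioning. miR-489 led, at -2.35 after RIPC and 1.04 ± 0.43 without it, for an interaction of -3.39 ± 0.78. Its adjusted p was 0.043 without RIPC 1 (edgeR), where RIPC 2 is assumed to vary like the other groups, and 0.595 without RIPC 2 (edgeR). It was 0.049 with the animal number prefix as a random block and 0.137 without the block (limma). Both RIPC+LAD animals lie in 1 block, and every prefix that animals share lies within 1 group. These values rest on RIPC+LAD counts below background, as given above. miR-3592 (-2.54 ± 0.70), miR-3589 (-2.59 ± 0.89, or -1.10 without RIPC 2) and miR-466d (-1.60 ± 0.56) followed. On the other side stood miR-185 (1.45 ± 0.51), miR-218a (1.42 ± 0.51), miR-301b (1.62 ± 0.64) and miR-674-3p (1.57 ± 0.63). The study had chosen miR-218a by its values in the AMC, LAD and RIPC+LAD animals, which favours a place here. For miR-218a the interaction came from LAD minus AMC, at -1.14 ± 0.33, whereas for miR-185 both parts contributed, at 1.03 and -0.42 ± 0.32. miR-204 had an interaction of -2.77 ± 1.18, and the single high animals RIPC 1 and LAD 1 both lower that value.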

How the data were processed

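RNA from punches of the dorsal vagal complex of 10 male rats was assayed with the rat microRNA panel of the NanoString nCounter. The deposited counts are whole numbers for 420 microRNA, 4 mRNA, 6 positive control, 8 negative control and 6 ligation control probes, and the lowest is 1. For the counting software, nothing is stated in the sources used here. The log2 values deposited by the authors for 146 microRNAs and 4 mRNAs equal log2-transformed counts scaled to 100000 microRNA counts a sample, and were used only in an alternative. Groups followed the treatment labels, and replicate numbers were given in accession order. No sample pair agreed within sampling noise. The labels name separate animals.

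Counts of 253 microRNAs above the mean plus 2 SD of the negative controls in at least 2 samples were tested with edgeR 4.0.16 in R 4.3.3 (TMM scaling, quasi-likelihood F test, 4 group means, Benjamini-Hochberg adjustment, threshold 0.05). The interaction was the RIPC+LAD minus RIPC difference less the LAD minus AMC difference. Standard errors are the absolute log2 fold change divided by the square root of F. limma 3.58.1 and DESeq2 1.42.0 served alternatives. Calls were tested on simulated counts with planted differences of 2 and 3 on the log2 scale, larger than most of those reported here. Recovery of smaller differences was not tested. 3 probes join several microRNA names.

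The microRNAs, the 21 lists and the tests were chosen with earlier results of these data known. Named microRNAs are the 12 with the smallest p in each direction, the 3 that the study singled out, the leading members of each list and the 4 leading interactions in each direction. Tested microRNAs with a sequence that share a seed with the first group were also named. Others were named after their values were seen, namely miR-9, miR-7b and miR-34c, the neighbours on the genome and the reverse complement pairs. Left out of the tests were the 4 mRNAs and the control probes.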

Additional observations from a re-analysis of the deposited data

Results flagged for a closer look

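The ligation control, which is outside the microRNA measurement, averaged 142% of the strongest positive control in the RIPC+LAD animals (111% and 172%), against 38.9% to 85.6% in the AMC animals and 24.3% to 54.4% in the LAD animals. It was singled out because both RIPC+LAD values were above every AMC value. With the ligation controls as a covariate, 9 microRNAs had an unadjusted p under 0.05 and 3 of these were among the 17 of the report.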

How the results depend on the processing

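With 2 animals a group, the direction of most microRNAs was held by few values. Without a TMM factor the median of all tested microRNAs moved by -0.19 and with scaling on the top 100 microRNAs by -0.12. The 7 higher and 10 lower microRNAs at an unadjusted p under 0.05 then became 5 and 17, and 6 and 16. Calls past adjustment between RIPC+LAD and RIPC numbered 8 in the fit of the 4 samples alone, 2 within the low positive control set and 0 in the other alternatives, those that leave out 1 sample included. The 17 at an unadjusted p under 0.05 became 28 with no detection filter, 10 with the authors' microRNAs or with limma on their log2 values, 7 and 9 with the positive control set and the ligation controls as covariates, 31 with the animal prefix as a random block, 39 in the fit of the 4 samples and 10 within the low positive control set. DESeq2 gave 12, limma-voom 14 and subtraction of the negative control mean 22. Leaving out 1 sample gave 8 to 30, with 30 without RIPC 1, 8 without RIPC 2, 8 without RIPC+LAD 2 and 26 without AMC 3. Interaction calls numbered 1 (miR-489) with the prefix block and 0 to 1 with 1 sample left out, the 1 without RIPC 1.

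Of 30 named microRNAs over 23 alternatives, 4 changed sign. miR-218a was at -0.0012 with the ligation covariate and at -0.30 to 0.64 with 1 sample left out, the lowest without RIPC+LAD 2. miR-495 was at -0.12 with the positive control covariate, -0.39 within the low set, and -0.28 to 0.73 with 1 sample left out. miR-183 was at -0.069 with the ligation covariate, -0.35 within the low set, and -0.25 to 0.74 with 1 sample left out. miR-204 was at -2.41 to 0.017 with 1 sample left out, the highest without RIPC 1. With the ligation covariate the leading differences between RIPC+LAD and RIPC shrank, except those of miR-375, miR-199a-5p and miR-3592. On the higher side miR-129 was then at 0.35, miR-127 at 0.39, miR-185 at 0.42 and miR-210 at 0.65. Lower ones included miR-3571 at -0.20, miR-3596c at -0.26, miR-455 at -0.29 and miR-30c at -0.34. miR-375, miR-199a-5p and miR-3592 were at -2.44, -2.13 and -1.48. The causes were not tested. No named interaction changed sign over 21 alternatives, but with the ligation covariate 4 shrank by over 1.5 times, miR-674-3p at 0.15, miR-185 at 0.43, miR-3589 at -0.59 and miR-466d at -0.64. Scaling and left-out samples for list medians were added after seeing the data. No paired analysis was possible because the replicate numbers were given in accession order and tie no RIPC+LAD animal to a RIPC animal.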
